A study of Mus musculus with 663 samples.

Results

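The collagen chain genes are the 44 rows of the deposited table, of 43320 gene rows used, whose name is Col, a number, the letter a and a number. Genes of other names that hold collagen-like repeats are not among them. They fall into 11 fibrillar chains, 6 basement membrane network chains (type IV), 6 beaded filament chains (type VI), 9 fibril-associated chains (called FACIT), 2 multiplexins, 3 short-chain network chains, 1 anchoring fibril chain, 4 transmembrane chains and 2 others. They were followed in single somatic cells of the developing mouse ovary, 662 cells of XX gonads in 5 embryonic stages named by day (E10.5, E11.5, E12.5, E13.5, E16.5) plus 1 postnatal stage, day 6 (P6). All cells came from NR5A1-eGFP mice of a mixed background, and per the labels live cells positive for the reporter were sorted and captured on microfluidic chips. The Nr5a1 product is a nuclear receptor needed by the somatic cells of the gonad, so germ cells and most other cells that do not carry the reporter were outside the sort.

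Collagens are extracellular proteins of 3 chains wound into a triple helix, and a chain is secreted only after it has found its partners. Fibrillar collagens form the tensile fibrils of connective tissue, type IV forms the sheet under epithelia and around vessels, type VI forms beaded filaments next to that sheet, and the other types sit on fibrils, in short-chain lattices or in cell membranes. In the ovary, stromal cells are known as makers of fibrils, and pregranulosa and granulosa cells lie on a basement membrane that encloses the follicle. Foxl2 marks pregranulosa and granulosa cells, and Nr2f2 marks progenitors and stroma.

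Several chains lie next to each other in the genome, and 3 stretches are shown because their genes recur in the results. Coordinates are on GRCm38, with gene positions from GENCODE release M21 and sequences from the RefSeq promoter table of GRCm38.p6. The type IV genes lie in head-to-head pairs: Col4a4 and Col4a3 start 71 bases apart on chromosome 1, Col4a6 and Col4a5 start 1308 bases apart on chromosome X, and the annotated starts of Col4a1 and Col4a2 overlap by 22 bases on chromosome 8. The stretch below for Col4a4 is the whole gap to Col4a3 (chr1:82586850-82586920, minus strand). Those for Col3a1 (chr1:45311388-45311537, plus strand) and for Col6a3 (chr1:90843972-90844121, minus strand) are the 150 bases before the RefSeq start. Capitals mark a TATA box as the letters TATAAA.
Col4a4 to Col4a3 gap: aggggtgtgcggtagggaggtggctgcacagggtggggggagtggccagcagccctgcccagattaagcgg
Col3a1: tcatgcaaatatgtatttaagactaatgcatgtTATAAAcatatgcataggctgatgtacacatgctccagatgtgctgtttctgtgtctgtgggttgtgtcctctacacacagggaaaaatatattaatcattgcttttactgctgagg
Col6a3: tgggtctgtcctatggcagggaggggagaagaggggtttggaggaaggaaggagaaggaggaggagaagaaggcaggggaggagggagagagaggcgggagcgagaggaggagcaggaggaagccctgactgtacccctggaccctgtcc
TATAAA on either strand was found in 4 of the 38 windows of 35 members in the table (Col3a1, Col10a1, Col11a2 and Col17a1), against 7.57% of 32851 windows of the same length. The CCAAT box, searched as CCAAT on either strand, was found in 8 of the 38, Col1a2, Col4a1 and Col4a2 among them, against 24.5% of all windows. A match is a description of the letters.

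Each stage was held by 1 to 3 captures, that is chips loaded separately, and the capture is the replicate throughout: E10.5 had 1 capture, E12.5 had 3 and every other stage had 2, with 40 to 71 cells a capture. The labels do not say whether different litters went into the captures; p-values therefore measure only how captures vary, and part of that may be technical. The captures were sequenced in 2 series, the first holding E10.5, E11.5, E13.5 and 2 of the E12.5 captures, the second holding E16.5, P6 and the remaining E12.5 capture. The second E12.5 capture stands apart: its depth, estimated from the spacing of low values, was 146000 reads a cell as a median, against 1860000 to 3160000 in the other captures, and although labelled XX it held the Y-linked Ddx3y at 20.6 RPKM, against at most 0.0994 RPKM in any other capture. Values are as deposited and were taken as RPKM, that is reads scaled to transcript length and sequencing depth, although the deposited table names no unit. They were averaged over the cells of a capture. A capture mean mixes cell types, so more cells of a type and more RNA per cell cannot be told apart in it.

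The ovary's collagen RNA was dominated by few chains. By mean over the 12 captures, the chains with the highest levels were Col1a2 at 62.3 RPKM, Col1a1 at 61.7 RPKM and Col3a1 at 48.3 RPKM, followed by Col6a1 at 32.4 RPKM, Col4a1 at 15.4 RPKM, Col18a1 at 13.2 RPKM, Col4a2 at 12.7 RPKM and Col6a2 at 11.6 RPKM. Neighbours in this order overlapped in their ranges over captures, which for Col1a1 ran over 12.4 to 173 RPKM. At the other end, 8 of the 44 members never reached 1 RPKM in a capture. Among these, Col5a3 and Col28a1 were each listed at 0 in 10 of the 12 captures, and the cartilage-associated Col9a1 did not exceed 0.566 RPKM. All members summed to 98.7 RPKM in the E10.5 capture, 167 and 156.8 RPKM in those of E11.5, 181, 228 and 201 RPKM in those of E12.5, 325 and 217 RPKM in those of E13.5, 366 and 681 RPKM in those of E16.5, and 684 and 793 RPKM in those of P6. The collagen share of all RPKM was 0.0238% at E10.5 and 0.169% and 0.184% in the P6 captures.

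**Figure D1:**
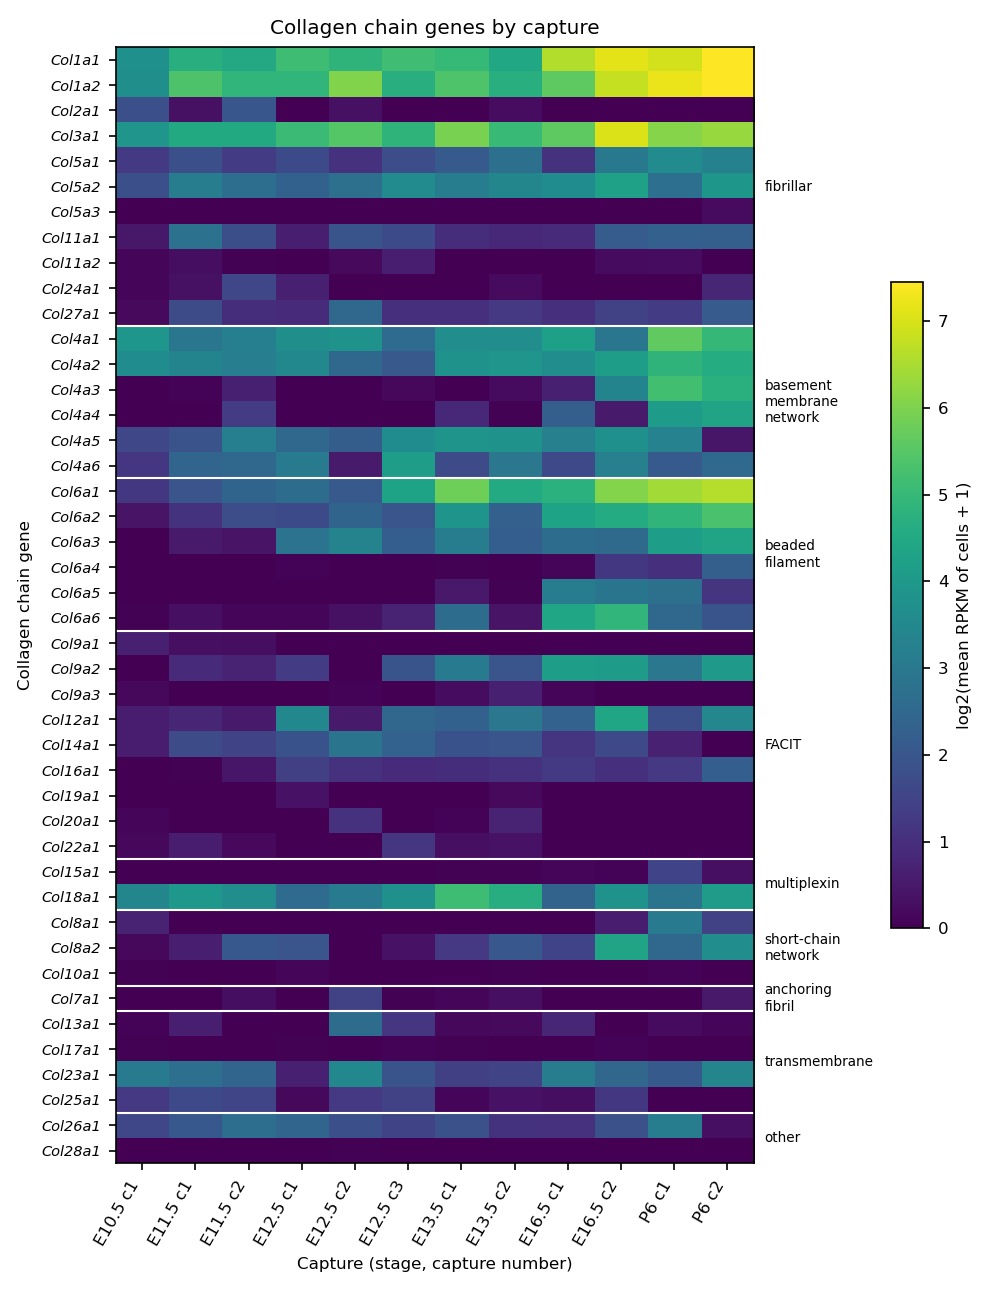
Heat map of the 44 collagen chain genes (rows, grouped by type) in the 12 captures (columns, by stage), as log2 of the mean RPKM of the cells plus 1. Col1a1, Col1a2 and Col3a1 are bright in every capture, Col4a3 and Col4a4 brighten at P6, and Col5a3 and Col28a1 stay dark.

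The fibrillar chains of types I and III were present from the first stage and at their highest in the last stages. Col1a1, the alpha 1 chain of type I collagen (chr11:94936224-94953042), had 12.4 RPKM at E10.5, 25.1 and 21.4 RPKM at E11.5, 34.2, 27.96 and 34.999 RPKM at E12.5, 30.97 and 21.01 RPKM at E13.5, 95.8 and 141.8 RPKM at E16.5 and 121.6 and 173 RPKM at P6. Its partner Col1a2 (chr6:4504814-4541544) had 12.2 RPKM at E10.5, 40.7 and 29.02 RPKM at E11.5, 28.8, 64.6 and 24.65 RPKM at E12.5, 41.4 and 24.4 RPKM at E13.5, 47.96 and 110.7 RPKM at E16.5 and 149.1 and 174 RPKM at P6. The E16.5 and P6 captures of Col1a1 lay above every earlier capture, while for Col1a2 the first E16.5 capture lay below the second E12.5 capture. Col3a1, the single chain of type III collagen, had 13.6 RPKM at E10.5, 22.2 and 21.98 RPKM at E11.5, 32.97, 44.2 and 27.5 RPKM at E12.5, 60.5 and 31.5 RPKM at E13.5, 47.2 and 132.7 RPKM at E16.5 and 67.3 and 78.3 RPKM at P6. For Col3a1 the P6 captures lay between those of E16.5, the E13.5 and E16.5 captures overlapped, and the second E16.5 capture was the highest. Of the cells of a stage, 63.4% held Col1a1 at 1 RPKM or more in E10.5, 62.3% in E11.5, 51.5% in E12.5, 53 of 106 cells in E13.5, 50.5% in E16.5 and 57.9% in P6, so the level moved more over the stages than the share of cells did.

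The remaining fibrillar chains were lower. Col5a2 ran over 2.52 to 18.4 RPKM and Col5a1 over 1.07 to 10.99 RPKM; both belong to type V collagen, which sits inside type I fibrils and is known to limit their width. Col11a1 reached 5.82 RPKM and Col27a1 4.69 RPKM. Col2a1, the cartilage fibril chain, had 2.52 RPKM at E10.5 and 0.273 and 2.98 RPKM at E11.5, and from E12.5 on no capture exceeded 0.261 RPKM.

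The beaded filament chains Col6a1, Col6a2 and Col6a3 were low at E10.5 and among the higher chains at P6. Col6a1 had 1.31 RPKM at E10.5, 2.93 and 4.32 RPKM at E11.5, 5.22, 3.26 and 18.9 RPKM at E12.5, 55.2 and 22.7 RPKM at E13.5, 25.9 and 66.1 RPKM at E16.5 and 84.4 and 98.2 RPKM at P6. Col6a3, whose long chain completes the type VI trimer with Col6a1 and Col6a2, was listed at 0 at E10.5 and had 0.465 and 0.322 RPKM at E11.5, 6.09, 9.04 and 3.70 RPKM at E12.5, 7.90 and 3.66 RPKM at E13.5, 5.23 and 4.93 RPKM at E16.5 and 16.96 and 19.3 RPKM at P6. Col6a1 at E13.5 lay above every E11.5 capture, and both chains lay higher at P6 than in either E16.5 capture. Col6a2 had 0.311 RPKM at E10.5 and 28.6 and 38.6 RPKM at P6. The related Col6a6, which can stand in the place of Col6a3 in the trimer, followed another course, with 4.59 and 2.79 RPKM at P6 against 19.8 and 29.1 RPKM at E16.5. Col6a5 had 5.70 and 1.19 RPKM at P6 against 7.68 and 6.48 RPKM at E16.5, and at most 0.423 RPKM in any capture before.

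**Figure D2:**
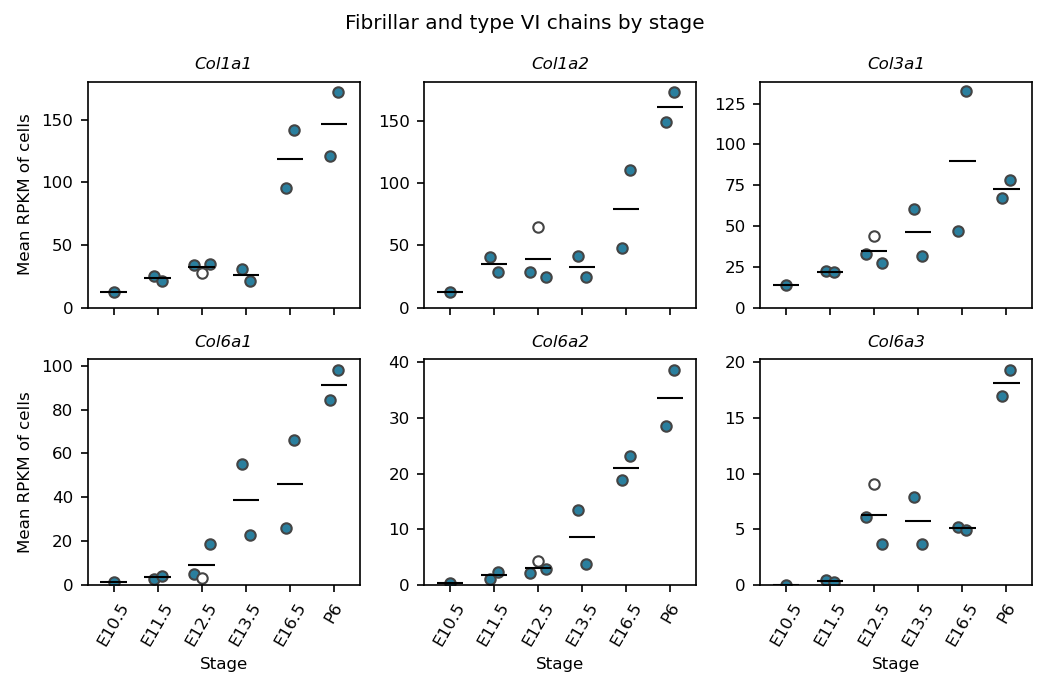
Mean RPKM of the cells of each capture (points) by stage for 3 fibrillar and 3 type VI chains, with the stage mean as a line and the second E12.5 capture as an open point. Col1a1 at E16.5 and P6 lies between 95.8 and 173 RPKM, above all earlier captures, and Col6a1 is at 1.31 RPKM at E10.5 and at 84.4 and 98.2 RPKM at P6.

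The type IV chains separated by gene pair. Col4a1 and Col4a2, which make up the common basement membrane network, were present at every stage: Col4a1 had 14.1 RPKM at E10.5, 6.63 and 8.27 RPKM at E11.5, 12.2, 13.01 and 5.12 RPKM at E12.5, 11.46 and 11.53 RPKM at E13.5, 17.3 and 6.66 RPKM at E16.5 and 48.2 and 30.4 RPKM at P6. Col4a2 had 27.7 and 23.4 RPKM at P6 against 11.501 and 16.8 RPKM at E16.5. Neither chain's P6 captures overlapped with those of E16.5. The pair Col4a3 and Col4a4, known as chains of the kidney filter and of a few other basement membranes, did not exceed 0.571 RPKM for Col4a3 and 1.47 RPKM for Col4a4 in any capture before E16.5. Col4a3 had 35.6 and 25.4 RPKM at P6 against 0.572 and 9.21 RPKM at E16.5, and Col4a4 had 16.3 and 19.5 RPKM at P6 against 3.81 and 0.447 RPKM at E16.5. At P6, 36 of 121 cells held Col4a3 at 1 RPKM or more and 46 of 121 held Col4a4, against 3 and 4 of 95 cells at E16.5, where 1 cell gave 72.4% of the summed Col4a3 and 1 cell gave 71.7% of the summed Col4a4. Of the X-linked pair, Col4a5, the partner of Col4a3 and Col4a4 in the kidney filter, had 8.96 and 0.372 RPKM at P6 against 8.48 and 12.3 RPKM at E16.5, and Col4a6 had 3.32 and 4.88 RPKM at P6 against 2.15 and 8.47 RPKM at E16.5. These values overlapped for Col4a6, and for Col4a5 the second P6 capture was the lowest of all 12.

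**Figure D3:**
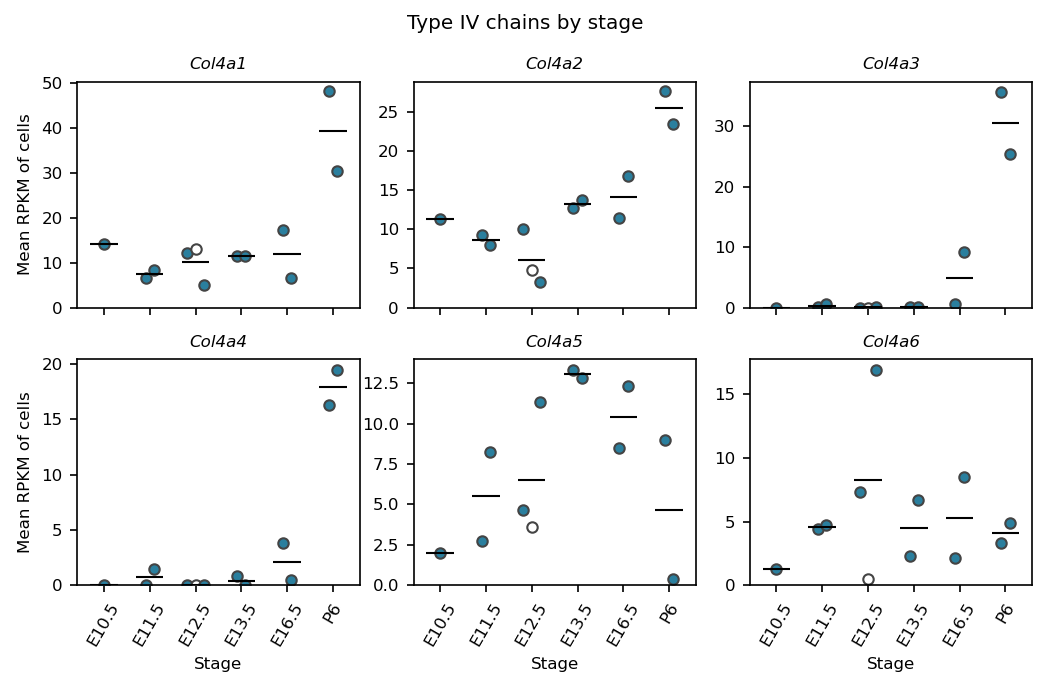
Mean RPKM of the cells of each capture (points) by stage for the 6 type IV chains, with the stage mean as a line and the second E12.5 capture as an open point; each panel has its own axis from 0. Col4a3 and Col4a4 lie at 16.3 to 35.6 RPKM in the P6 captures and at 1.47 RPKM or less before E16.5.

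The other types were low or uneven. Col18a1, the multiplexin whose end is cut off as endostatin, had 34.5 and 24.1 RPKM at E13.5, above every other capture, the next being 16.2 RPKM in the second P6 capture. Among FACIT chains, Col9a2 had 6.69 and 15.4 RPKM at P6 against 16.8 and 16.4 RPKM at E16.5, and Col12a1 ran over 0.446 to 19.8 RPKM with captures of 1 stage far apart. Col23a1, a transmembrane chain, ran over 0.576 to 10.1 RPKM. Col8a1, a short-chain network chain, had 7.31 and 1.72 RPKM at P6, carried by 4 of 121 cells.

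Differences between stages were tested with limma on the capture means as log2(RPKM + 1), with the sequencing series as a term and adjustment by the Benjamini-Hochberg method over 19710 genes that reached 1 RPKM in some capture. Of the 44 members 36 were tested, and none passed an adjusted p of 0.05 in any of the 6 stage contrasts or in the F test over all stages. The share of all genes called was 0.969% for E11.5 minus E10.5, 0.0% for E12.5 minus E11.5, 0.0% for E13.5 minus E12.5, 0.528% for E16.5 minus E13.5, 0.289% for P6 minus E16.5, 0.0% for E13.5 minus E11.5 and 1.37% for the F test. At an unadjusted p under 0.05 the F test held 14 of the 36 members, against 11.68% of all genes. The contrasts held, at that level, 0 members for E11.5 minus E10.5 (5.02% of all genes), 1 for E12.5 minus E11.5 (8.06%), 3 for E13.5 minus E12.5 (8.26%), 4 for E16.5 minus E13.5 (7.27%), 6 for P6 minus E16.5 (8.95%) and 5 for E13.5 minus E11.5 (5.29%). The lowest adjusted p values of the F test were 0.0808 for Col6a3 and 0.11 for Col6a1. The count was 3 members without the series term (Col1a1, Col6a2 and Col6a3) and 4 when the second E12.5 capture was left out as well (also Col6a1), all by the F test. The share of all genes called under these settings is not given here, so these counts are no result about the members. With series and stage partly in step, their parts cannot be told apart for comparisons across the series.

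Sizes are given for the contrasts that lie within 1 series, on the log2(RPKM + 1) scale. P6 minus E16.5 was 2.83 ± 0.70 for Col4a4 (SE, adjusted p = 0.227 by limma), 2.95 ± 0.83 for Col4a3 (adjusted p = 0.285 by limma), 1.73 ± 0.48 for Col4a1 (adjusted p = 0.273 by limma) and 0.31 ± 0.34 for Col1a1 (adjusted p = 0.872 by limma). Without the second E16.5 capture, which held the higher Col4a3 of that stage, the difference of Col4a3 was 4.30. E16.5 was then held by 1 capture, so its spread was not measured. E13.5 minus E11.5 was 2.997 ± 0.58 for Col6a1 (adjusted p = 0.278 by limma), 2.21 ± 0.48 for Col6a3 (adjusted p = 0.36 by limma) and 0.13 ± 0.34 for Col1a1 (adjusted p of 1 by limma). The median over the 36 members was 0.29 for P6 minus E16.5, against a median of 0 over all genes, and 0.21 for E13.5 minus E11.5, against 0.01 over all genes. In 12 of the 36 members both P6 captures lay above both E16.5 captures, against 17.28% of all genes, and in 5 both lay below, against 17.01% of all genes. In 18 of the 36 members both E13.5 captures lay above both E11.5 captures, against 21.19% of all genes, and in 6 both lay below, against 18.15% of all genes.

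Levels of other marker genes moved over the same stages. The 8 stroma markers (Nr2f2, Dcn, Lum, Pdgfra, Tcf21, Mfap4, Wnt5a and Nr2f1) summed to 1201 and 2156 RPKM at P6, to 656 and 856 RPKM at E16.5 and to 228 to 550 RPKM in the captures before. Dcn gave 512 and 1028 RPKM of the P6 sums. Wnt5a and Nr2f1 went the other way. Wnt5a had 3.86 and 4.59 RPKM at P6 against 16.54 and 24.6 RPKM at E16.5, and Nr2f1 had 0.0138 and 0.00858 RPKM against 0.0188 and 20.7 RPKM. The 5 pericyte and smooth muscle markers summed to 101.1 RPKM in the first P6 capture, of which Rgs5 gave 75.1 RPKM, and to 4.11 RPKM in the second. These markers summed to 114.3 RPKM at E10.5, 57.3 and 64.6 RPKM at E11.5 and 85.4 RPKM in the first E12.5 capture. In the remaining captures they summed to 11.9 to 23.5 RPKM. The 6 endothelial markers summed to at most 14.3 RPKM in any capture, but 1 of them, Cdh5, was called higher at P6 than at E16.5. Cdh5 had 6.65 and 9.77 RPKM at P6 against 0 and 0.0854 RPKM at E16.5 (3.12 ± 0.35, adjusted p = 0.0284 by limma). Pecam1 and Tek were listed at 0 in both P6 captures, and Kdr had 1.36 and 3.77 RPKM at P6 against 12.9 and 3.60 RPKM at E16.5. The 8 surface epithelium markers summed to 31.8 and 57.4 RPKM at P6 against 348 and 175.6 RPKM at E16.5, with all 8 lower and 7 at an unadjusted p under 0.05. The 5 steroidogenic markers summed to 1063 and 307 RPKM at P6 against 100.9 and 64.4 RPKM at E16.5. Nearly all of this was Hsd3b1, with 1059.9 and 303.7 RPKM at P6 against 95.4 and 59.96 RPKM at E16.5. Star went the other way, with 2.81 and 0 RPKM at P6 against 5.52 and 4.45 RPKM at E16.5. The part of these marker lists in the stage differences was not tested.

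The clearest difference among the collagens was between cells by their Nr2f2 and Foxl2. Nr2f2 reached 1 RPKM in 609 of the 662 cells and Foxl2 in 22.5% of them, and 83.9% of the Foxl2-positive cells held Nr2f2 too. Cells positive for 1 gene only numbered at least 5 of each class in 2 captures, the first E16.5 capture (36 Nr2f2-positive and 6 Foxl2-positive cells) and the second P6 capture (22 and 9 cells). Col1a1 had 145.1 RPKM in Nr2f2-positive and 3.76 RPKM in Foxl2-positive cells of the E16.5 capture, and 266 RPKM in Nr2f2-positive and 0.392 RPKM in Foxl2-positive cells of the P6 capture. Col1a2 had 71.7 RPKM in Nr2f2-positive and 2.28 RPKM in Foxl2-positive cells at E16.5, and 249 RPKM in Nr2f2-positive and 9.04 RPKM in Foxl2-positive cells at P6. With capture as a block, limma called 2 of the 28 members tested, both higher in Nr2f2-positive cells, against 0.528% of 14776 genes called in either direction and 0.393% called higher: Col1a1 by 6.26 ± 1.13 (SE, adjusted p = 2.34e-05) and Col1a2 by 4.55 ± 1.06 (adjusted p = 0.00646). Col3a1 was at 4.19 ± 1.18 (adjusted p = 0.0606 by limma) and Col6a3 at 4.02 ± 1.57 (adjusted p = 0.403 by limma). At an unadjusted p under 0.05 there were 11 of the 28 members, against 7.05% of all genes. This fit has 1 residual degree of freedom, so its errors come almost wholly from the spread shared by all genes, and with no filter on low genes neither chain passed (adjusted p = 0.683 by limma for each).

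Assigning cells with both genes to the one with the higher RPKM gave 5 captures with at least 5 cells of each kind, called Nr2f2-led and Foxl2-led here: 208 Nr2f2-led and 54 Foxl2-led cells at E13.5 (both captures), E16.5 (the first) and P6 (both). Col1a1 had 37.2 RPKM in Nr2f2-led and 0.141 RPKM in Foxl2-led cells of the first E13.5 capture, and 25.2 and 0.80 RPKM in those of the second. In the E16.5 capture Col1a1 had 137.4 RPKM in Nr2f2-led and 4.09 RPKM in Foxl2-led cells. At P6 Col1a1 had 177 RPKM in Nr2f2-led and 11.2 RPKM in Foxl2-led cells of the first capture, and 238 and 38.8 RPKM in those of the second. The Nr2f2-led value of Col1a1 was the higher one in 5 of 5 captures, as was that of Col1a2, which had 68.1 RPKM in Nr2f2-led and 4.99 RPKM in Foxl2-led cells at E16.5. Limma called 2 of the 33 members tested, both higher in Nr2f2-led cells, against 0.204% of 18154 genes called in either direction and 0.138% called higher: Col1a1 by 4.03 ± 0.49 (adjusted p = 0.00541) and Col1a2 by 3.47 ± 0.46 (adjusted p = 0.0104). At an unadjusted p under 0.05 there were 12 of the 33, against 11.45% of all genes, and the members' median was 0.57 against 0.33 over all genes. Without the second P6 capture, Col1a2 was at 3.54 with an adjusted p = 0.05 by limma, which misses the threshold, and with no filter on low genes neither chain passed. When every cell with Foxl2 at 1 RPKM or more was called Foxl2-positive whatever its Nr2f2, a choice made after the values were seen, 8 captures could be used and none of 34 members passed, against 0.0153% of genes, with 10 members at an unadjusted p under 0.05 (8.62% of genes).

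**Figure D4:**
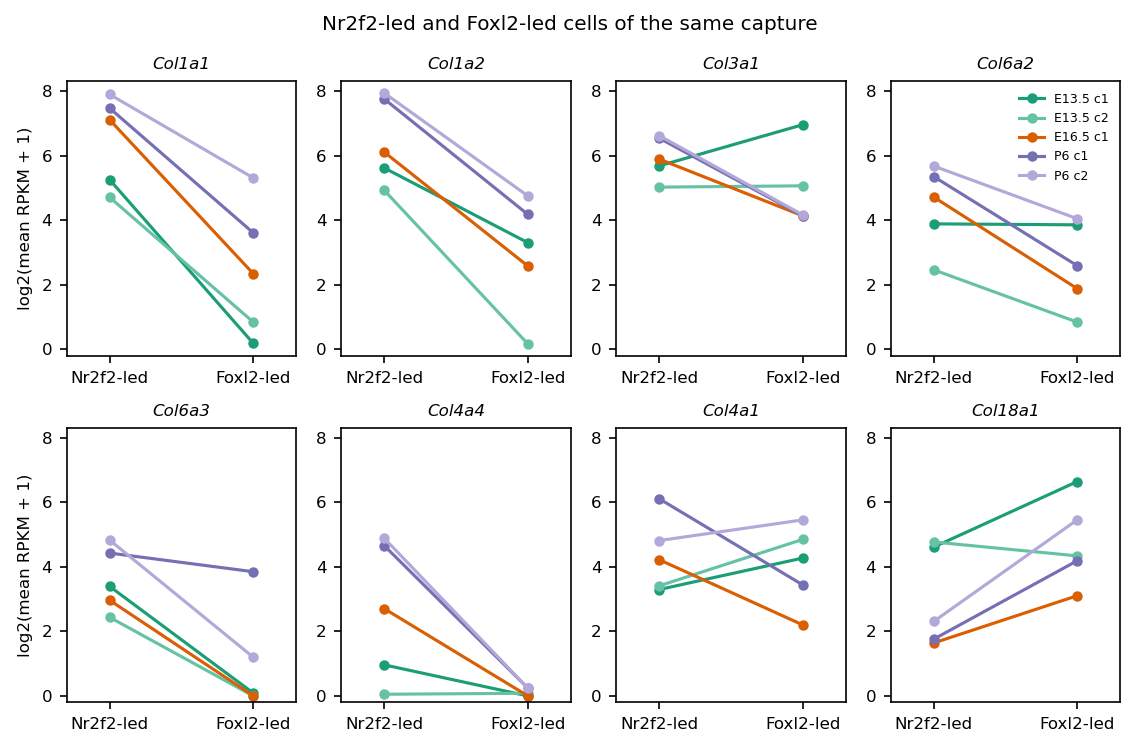
Mean of Nr2f2-led (left) and Foxl2-led (right) cells of the same capture, joined by a line, as log2(RPKM + 1), for 8 chains in the 5 captures with at least 5 cells of each kind. All 5 lines of Col1a1 and Col1a2 run down to the Foxl2-led cells, 4 of 5 lines of Col18a1 run up, and those of Col4a1 cross.

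No other chain passed in these fits, while Col3a1 and Col4a4 passed under some other settings given at the end. Toward Nr2f2-led cells, Col6a3 was at 2.58 ± 0.68 (SE, adjusted p = 0.178 by limma) and Col4a4 at 2.54 ± 0.79 (adjusted p = 0.243 by limma). Col4a4 had 24.1 and 28.5 RPKM in the Nr2f2-led cells of the P6 captures, against 0.182 and 0.18 RPKM in the Foxl2-led cells. Toward Foxl2-led cells, Col18a1 was at -1.73 ± 0.59 (adjusted p = 0.289 by limma), Col8a1 at -1.57 ± 0.74 (adjusted p = 0.447 by limma), Col9a2 at -1.47 ± 0.53 (adjusted p = 0.316 by limma) and Col22a1 at -0.23 ± 0.36 (adjusted p = 0.791 by limma). Col18a1 had 2.38 and 3.95 RPKM in Nr2f2-led cells at P6, against 17.2 and 42.9 RPKM in Foxl2-led cells, and was lower in the Nr2f2-led cells of 4 of 5 captures. Col8a1 rested on 4 of 54 Foxl2-led cells and on none of the 208 Nr2f2-led cells at 1 RPKM or more. In the cells positive for 1 gene only, the member lowest in Nr2f2-positive cells was Col4a6 at -3.16 ± 1.53 (adjusted p = 0.663 by limma). Col4a6 was at 1 RPKM or more in only 1 of 6 Foxl2-positive cells at E16.5 and 1 of 9 at P6. Next were Col18a1 at -1.83 ± 1.56 and Col9a2 at -1.61 ± 1.24 (adjusted p = 0.885 and 0.87 by limma), then Col4a5 at -0.88 ± 1.56 (adjusted p = 0.922 by limma). Col4a1 was at 0.33 ± 0.65 and Col6a1 at 0.12 ± 0.78 between Nr2f2-led and Foxl2-led cells (adjusted p = 0.84 and 0.956 by limma), with the sign differing between captures.

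The same contrast held for the share of cells. Over the 5 captures, Col1a1 was at 1 RPKM or more in 64.4% of Nr2f2-led cells (exact 95% interval 57.5% to 70.9%, n = 208 cells) and in 16.7% of Foxl2-led cells (7.92% to 29.3%, n = 54 cells). For Col18a1 the shares were 29.8% of Nr2f2-led cells (23.7% to 36.5%) and 55.6% of Foxl2-led cells (41.4% to 69.1%). For Col4a1 they were 57.2% of Nr2f2-led cells (50.2% to 64.03%) and 46.3% of Foxl2-led cells (32.6% to 60.4%). These intervals cover counting error only, and the cells of a capture are not replicates. The median number of genes detected was 5492.5 in Nr2f2-led and 5005 in Foxl2-led cells.

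Marker lists of cell types were read in the same cells. The 8 stroma markers summed to 403, 388, 927, 1675 and 3004 RPKM in the Nr2f2-led cells of the 5 captures, against 24.9, 52.2, 39.8, 313 and 396 RPKM in the Foxl2-led cells, and 6 of the 8 were called higher in Nr2f2-led cells by limma, against 0.138% of all genes; 1 of the 6 is Nr2f2, whose level chose the cells. The 10 supporting lineage markers summed to 87.5 to 166 RPKM in Nr2f2-led and to 170 to 431 RPKM in Foxl2-led cells, and the surface epithelium markers to 0.247 to 395 RPKM in Nr2f2-led and to 23.8 to 106 RPKM in Foxl2-led cells. Foxl2, which also chose the cells, is on the supporting list and was the only marker of it that was called (-3.54 ± 0.59, adjusted p = 0.0292 by limma). Fst was at -1.60 ± 0.44 (adjusted p = 0.188 by limma). Lgr5, Hsd17b1 and Wnt4 lay toward Nr2f2-led cells, at 0.84 ± 0.76, 0.57 ± 0.65 and 0.23 ± 0.81. The part of stromal and epithelial cells in the collagen differences was not tested.

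Within a stage, the mean level of Col1a1 was higher in each higher bin of Nr2f2, and from E11.5 on Col18a1 did not follow that order. In P6 cells binned by Nr2f2, Col1a1 averaged 0.491 RPKM below 1 RPKM of Nr2f2 (20 cells), 1.76 RPKM at 1 to 10 (16 cells), 99.01 RPKM at 10 to 100 (32 cells) and 281 RPKM at 100 or more (53 cells). In the same bins Col18a1 averaged 28.9, 35.9, 8.21 and 0.00365 RPKM, and Col4a1 averaged 11.2, 32.9, 24.5 and 58.9 RPKM. At E13.5 Col1a1 averaged 0.405, 0.672, 10.3 and 67.2 RPKM in these bins, and Col18a1 averaged 16.1, 33.2, 29.3 and 30.3 RPKM. The mean Foxl2 of the P6 bins was 29.1, 30.1, 30.6 and 18.6 RPKM, so Foxl2 was also present in the bin with the most Col1a1. Across the cells of a capture, the rank correlation of Nr2f2 with Col1a1 had a median of 0.65 over 12 captures (0.29 to 0.79), and that of Nr2f2 with Col18a1 a median of -0.11 (-0.57 to 0.08), both as descriptions of cells that share a chip and differ in depth.

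**Figure D5:**
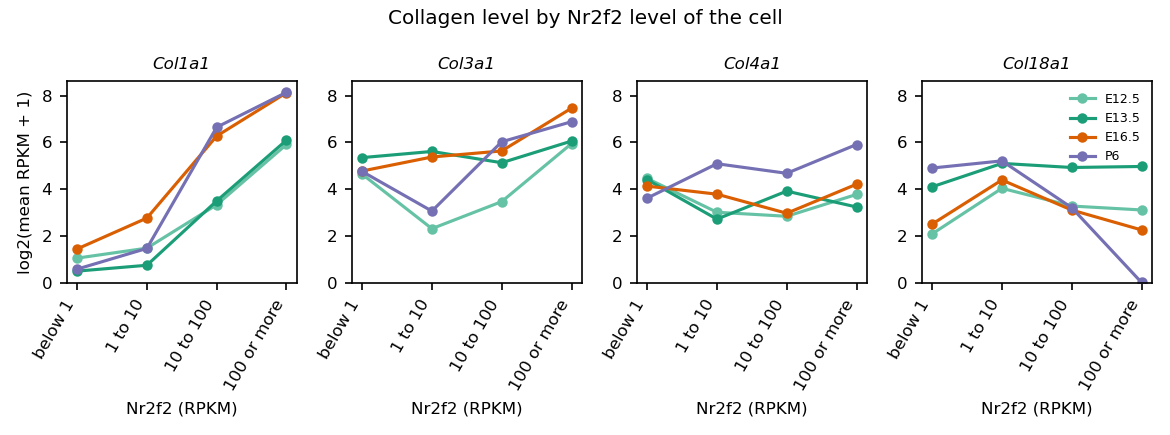
Mean level of 4 chains, as log2(RPKM + 1), in cells binned by their Nr2f2 level (below 1, 1 to 10, 10 to 100, and 100 RPKM or more) at 4 stages, with at least 5 cells in each bin. Col1a1 climbs along the bins at each of these stages, and Col18a1 at P6 runs down to 0.00365 RPKM in the highest bin.

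Whether the class difference changed with stage was asked in the Nr2f2-led and Foxl2-led cells, because cells positive for 1 gene only gave no such fit. None of the 33 members passed the test of class by stage (0.0% of 18154 genes were called), with 3 members at an unadjusted p under 0.05 (7.39% of genes): Col3a1, Col8a1 and Col4a4. Col3a1 had 50.5 RPKM in Nr2f2-led and 123.5 RPKM in Foxl2-led cells of the first E13.5 capture, 31.6 and 32.6 RPKM in those of the second, and 58.6 and 16.6 RPKM in those of the E16.5 capture. At P6 Col3a1 had 92.6 RPKM in Nr2f2-led and 16.7 RPKM in Foxl2-led cells of the first capture, and 97.8 and 17.03 RPKM in those of the second. The order of the classes for Col3a1 thus differed between the first E13.5 capture and the later stages, while the second E13.5 capture held nearly equal values. The Foxl2-led means of the E13.5 captures rested on 8 and 5 cells. The change with stage had an adjusted p = 0.669 by limma. The class difference of Col1a1 was 4.47 ± 0.62 in E13.5 captures, 4.77 ± 0.88 in the E16.5 capture and 3.22 ± 0.62 in P6 captures (SE), and the change between P6 and E16.5 was -1.54 ± 1.08 (adjusted p = 0.878 by limma).

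Stage differences were then taken within a class. In cells positive for Nr2f2 only, Col1a1 had 12.4 RPKM at E10.5, 26.6 and 21.8 RPKM at E11.5, 40.3, 31.4 and 39.8 RPKM at E12.5, 42.6 and 29.7 RPKM at E13.5, 145.1 and 187 RPKM at E16.5 and 180 and 266 RPKM at P6. The captures of E16.5 and P6 again lay above all earlier ones. Marker levels in these cells also differed between P6 and E16.5. Of the 8 surface epithelium markers all were lower at P6, each at an unadjusted p under 0.05, and Krt8 passed (-4.29 ± 0.48, adjusted p = 0.037 by limma). Among endothelial markers, Cdh5 was higher (4.55 ± 0.41, adjusted p = 0.0275 by limma), but Kdr lay the other way (-2.71 ± 0.815, adjusted p = 0.264 by limma). Pecam1, Tek and Emcn were at -0.29 ± 0.50, -0.16 ± 0.66 and -0.001 ± 0.67. The part of these markers in the collagen values was not tested. None of the 35 members tested passed for P6 minus E16.5 (0.211% of 19446 genes were called) or for E13.5 minus E11.5 (0.0617%), with 8 and 4 members at an unadjusted p under 0.05 (10.85% and 4.31% of genes). P6 minus E16.5 was 0.41 ± 0.35 for Col1a1, 1.25 ± 0.51 for Col1a2, 1.92 ± 0.52 for Col6a3 and 3.30 ± 0.97 for Col4a4 (SE, adjusted p = 0.734, 0.44, 0.214 and 0.254 by limma). Of the 8 members at an unadjusted p under 0.05, 4 were lower at P6: Col6a5 at -2.09 ± 0.51, Col9a2 at -2.21 ± 0.55, Col6a6 at -3.09 ± 0.88 and Col14a1, a FACIT chain, at -1.75 ± 0.54 (adjusted p = 0.178, 0.187, 0.239 and 0.271 by limma). Col18a1 was at -1.22 ± 0.78 within this class, against 0.41 ± 0.61 over all cells (adjusted p = 0.614 and 0.946 by limma). E13.5 minus E11.5 was 2.68 ± 0.52 for Col6a3 (adjusted p = 0.37 by limma). In Foxl2-led cells, P6 minus E16.5 rested on 2 P6 captures and 1 E16.5 capture, so the spread at E16.5 was not measured and only sizes are given. Col23a1 was at -3.65, while Col8a1 was at 3.93 and Col4a3 at 3.73. At 1 RPKM or more, Col23a1 was held by 2 of 10 Foxl2-led cells at E16.5 and by 1 of 13 and 1 of 18 at P6.

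Partner chains differed in how closely they were found in the same cells. Of the 366 cells with Col1a1 at 1 RPKM or more, 86.3% also held Col1a2, and of the 385 with Col1a2, 82.1% also held Col1a1; their rank correlation over the cells of a capture had a median of 0.73 (0.44 to 0.86 over 12 captures). Col4a1 and Col4a2, which start back to back, had a median of 0.21 (0.06 to 0.64 over 12 captures), with 53.7% of the 335 Col4a1 cells holding Col4a2 and 63.8% of the 282 Col4a2 cells holding Col4a1. Col4a3 and Col4a4 could be compared in the P6 captures, at 0.50 and 0.39, and 52.3% of the 44 Col4a3 cells held Col4a4, against 41.8% of the 55 Col4a4 cells that held Col4a3. Col4a5 and Col4a6 had a median of 0.12 over 11 captures (-0.11 to 0.58). Col6a1 and Col6a2 had a median of 0.43 over 10 captures (0.05 to 0.81). These values are descriptions, since a chain of lower level is missed more often in a cell.

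Genes that act on collagens were read from lists. Of 18 tested genes for collagen modification and folding, 1 was higher in cells positive for Nr2f2 only than in cells positive for Foxl2 only: Fkbp10, a collagen chaperone, by 5.91 ± 1.43 (SE, adjusted p = 0.0118 by limma). Of 10 genes for processing and cross-linking, 1 was lower: Bmp1, the protease that removes the C-terminal propeptide, at -4.04 ± 1.09 (adjusted p = 0.0412 by limma). Of 7 collagen-degrading proteases and their inhibitors, 1 was higher: Mmp2, a gelatinase, by 6.53 ± 1.38 (adjusted p = 0.00114 by limma). None of 7 collagen receptors and none of 13 basement membrane partners (laminins, nidogens, perlecan and agrin) passed, with 1 and 2 at an unadjusted p under 0.05. Over all genes in this comparison 0.528% were called and 7.05% were at an unadjusted p under 0.05. Counts of 1 or 2 in such short lists are no result about the lists. At an unadjusted p under 0.05, the proteases Ctsk at 5.40 ± 1.49, Mmp16 at 3.66 ± 1.43 and Mmp14 at 2.47 ± 1.20 were higher too (adjusted p = 0.0542, 0.405 and 0.663 by limma). The inhibitors Timp1, Timp2 and Timp3 were not at that level. Sparc and Fkbp14 of the modification list and Tgm2 of the processing list were. No list was tested as a set. Between Nr2f2-led and Foxl2-led cells, Mmp2 was again higher, by 3.86 ± 0.58 (adjusted p = 0.0209 by limma), and no other gene of these 5 lists was called. By stage, Timp3, an inhibitor of metalloproteases, had 51.5 and 55.04 RPKM at E11.5 against 9.12 RPKM in the single E10.5 capture. Its difference of 2.42 ± 0.37 passed (adjusted p = 0.0372 by limma), but the lone E10.5 capture is assumed there to vary like the other stages, from which the spread is taken. No other gene of the 5 lists passed in a stage contrast.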

How the data were processed

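Single-cell polyadenylated RNA was sequenced after SMARTer cDNA synthesis and Nextera XT library preparation, per the labels' protocols; no molecular identifiers are named there. The deposited table names no unit. Its values were taken as RPKM made by the authors, because their sums differed between cells. Per the submitters' processing notes the build was GRCm38.p3 (mm10); aligner, counting tool and its use of strand were not given in the sources used here. Of 43347 rows, 27 with names turned into dates were left out. The 663 libraries gave 662 cells, 1 cell sequenced more than once being averaged (r = 0.996). From the spacing of low values and exon lengths of GENCODE M21, reads per cell were estimated at a median of 146000 in the second E12.5 capture and 1860000 to 3160000 in the others; the files give no counts.

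RPKM were first averaged over the cells of a capture or class, and log2(mean RPKM + 1) was then tested. The test was limma 3.58.1 (R 4.3.3), with a trended prior, on genes at 1 RPKM or more in some capture, with an adjusted p under 0.05. The script was tested on simulated data. A class needed 5 cells in a capture. Classes of positive cells used a threshold of 1 RPKM. Named were the 8 members of highest mean, the type IV chains, members called, and the 4 largest class differences each way; any other member named was chosen after its values were seen. Members and lists were chosen with earlier results of these data known. The class by stage fit and the fit within Foxl2-positive cells could not be made as designed and used the class of the higher gene.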

Additional observations from a re-analysis of the deposited data

How the results depend on the processing

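The number of members passing in some stage contrast or the F test was 0 as reported, 1 with a pseudocount of 0.1, 3 with no filter, 2 with each cell rescaled to 1 fixed sum, 3 without the series term, 4 with that term dropped and the shallow E12.5 capture left out, and 0 within either series alone or with 1 RPKM required in 2 captures. Leaving out each capture in turn gave 0 to 4. Left out in turn, the captures that moved this count were the E11.5 captures (2 and 1), the first E12.5 capture (4), the second E16.5 capture (1) and the second P6 capture (2). The number for the class difference was 2 as reported and 0 with no filter, also with the class of the higher gene (0). It was 0 with every Foxl2-positive cell in the Foxl2 class. With a threshold of 5 RPKM it was 3, and with a pseudocount of 0.1 it was 3. Col3a1 was the one added in both (adjusted p = 0.0457 and 0.0488 by limma). With the class of the higher gene it was 4 in the P6 captures alone, Col3a1 and Col4a4 being added, and 1 in the fetal captures alone. Leaving out each capture with that class gave 1 to 2. For class differences taken stage by stage and their change with stage the number was 0 as reported and 1 with no filter, which is the class difference of Col13a1 within E16.5 (1 capture) and not a change with stage. Within Nr2f2-positive cells the number was 0 as reported, 1 with no filter, and 0 to 2 leaving out each capture (1 without the first E11.5 capture, 2 without the second P6 capture); within Foxl2-led cells it was 0 under every alternative run. The 14 single differences followed across settings kept their sign, but other chains, none of them passing, did not: Col23a1 was at 1.47 between Nr2f2-led and Foxl2-led cells, at -0.59 between cells positive for 1 gene only and at -0.65 with every Foxl2-positive cell in the Foxl2 class. The cause of these moves was not tested. Shares of all genes called are given only for the fits of the Results, so the counts under the other settings are no result about the members. Without the capture as a replicate block the class count was 2, but with 1 capture a stage and stage kept as a term this is the reported fit itself and tests nothing; with the class of the higher gene it was 2 without the block, again Col1a1 and Col1a2 (adjusted p = 0.00704 and 0.0214 by limma). No paired analysis was possible for stages because captures of different stages share only a number. The class with any value above 0 could not be fitted, since 1 capture held enough cells.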
